A study of Mus musculus with 12 samples.

Results

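A set of 10 genes of the canonical Wnt pathway were followed on 12 microarrays of mouse thymic T cells: Lrp6, Fzd7, Apc, Axin1, Axin2, Gsk3b, Nkd1, Ctnnb1, Bcl9 and Sp5. They were chosen by name, for their places in the pathway, out of 19938 genes that had a row of their own in the deposited table. Each of the 10 had 1 row, and all 10 were among the 14953 genes that passed a filter on dim signal and were tested. The study sorted lymphoma cells from the thymus of 6 TCF-1 KO mice aged 12 to 40 weeks that had developed T cell lymphoma, DN3 thymocytes from TCF-1 KO mice aged 8 to 12 weeks (3 arrays), and DN3 thymocytes from wild-type (WT) mice of the same ages (3 arrays). DN3 thymocytes are immature cells, still without CD4 and CD8, at the stage of T cell receptor beta gene rearrangement. All mice were C57/BL6 and no agent was given to any group. The lymphomas and the TCF-1 KO DN3 cells share the loss of TCF-1, so the contrast of lymphoma with TCF-1 KO DN3 holds the genotype label constant. Disease, age and the kind of cell sorted cannot be told apart in it. In the contrast of lymphoma with WT DN3, genotype cannot be told apart from these either. The knockout allele is not given in the sources used here, and the level of the gene that encodes TCF-1 was not analysed here. The labelled genotype therefore has no check in these values.

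In canonical Wnt signalling, a ligand binds a Frizzled receptor and its LRP co-receptor, which stops a complex of Axin, APC and the kinase GSK3 from marking beta-catenin for destruction. Beta-catenin then enters the nucleus and binds transcription factors of the TCF/LEF family, of which TCF-1 is the main member in thymocytes and LEF-1 a relative. Several genes switched on in this way, among them Axin2, Nkd1 and Sp5, act back on the pathway, and Axin2 is widely used as a readout of it.

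CTTTGA is a form of the core letters that TCF/LEF proteins bind, and forms that do not hold it were not searched. The 250 bases before a start site of Axin2 and of Sp5 are shown in RefSeq's sequence of the build GRCm38.p6. These were the 2 genes with the clearest differences between groups. The Sp5 window lies at chr2:70474673-70474922 on the plus strand, just before the gene (chr2:70474923-70477726), and the Axin2 window at chr11:108920099-108920348 on the plus strand, inside the span RefSeq gives the gene (chr11:108917828-108950783). Capitals mark CTTTGA, searched on both strands:
Sp5: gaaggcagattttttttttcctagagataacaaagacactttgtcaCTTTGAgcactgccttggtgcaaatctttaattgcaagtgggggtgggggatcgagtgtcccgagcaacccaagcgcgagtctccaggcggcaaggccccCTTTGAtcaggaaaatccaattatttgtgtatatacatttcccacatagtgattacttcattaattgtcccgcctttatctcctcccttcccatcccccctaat
Axin2: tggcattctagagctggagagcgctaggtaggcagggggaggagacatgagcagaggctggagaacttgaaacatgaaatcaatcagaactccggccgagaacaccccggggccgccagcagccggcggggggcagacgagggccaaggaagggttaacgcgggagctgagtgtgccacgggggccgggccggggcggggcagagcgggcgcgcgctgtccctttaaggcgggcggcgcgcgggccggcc
The Sp5 window held CTTTGA 2 times, at positions -204 and -104 from the gene start, and the copy nearer the start continued as CTTTGAT. The Axin2 window held none, and the bases before the span RefSeq gives Axin2 were not searched. Of the 7 members with a window (8 windows in all), 2 held the letters, the other being Gsk3b with 1 copy on the opposite strand, at position -77. Across all 32851 windows of that length, 4544 (13.8%) held CTTTGA on either strand and 1053 (3.2%) held CTTTGAT. A match describes the letters only, and the arrays hold no measure of binding.

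The values are log2 signals as the authors deposited them, 1 per gene and array, and 1 unit is a doubling of signal. Signals of different genes come from different probes and are not set against each other. A gene was called different when limma gave an adjusted p under 0.05 over the 14953 genes tested, and "rose" and "fell" are used of called genes only. RMA scales the arrays against each other, but the deposited signals did not all share the same distribution. Repeating quantile normalization took the genes called in TCF-1 KO DN3 minus WT DN3 from 298 to 234. Bulk RNA does not separate fewer cells of a type from less RNA per cell. Array medians lay between 5.30 and 5.39. On 34 rows without a gene name, 4 arrays stood at least 1 log2 unit apart from the other 8: replicate 1 of each DN3 group and lymphomas 1 and 2. No label explains this, so differences are also given within the 8 arrays, called the larger array set, and within the 4. DN3 markers had a mean log2 signal of 8.70 to 9.19 over 12 genes in lymphomas, 9.02 to 9.22 in TCF-1 KO DN3 and 9.18 to 9.26 in WT DN3. Of these 12, 1 rose (Dtx1) and 4 fell (Rag1, Rag2, Cd3g and Dntt) in lymphomas relative to WT DN3, where 5.82% of all genes were called. Rag1 fell there by 1.92 (limma adjusted p = 0.00824) and Dtx1 rose by 0.92 (limma adjusted p = 7.69e-05). Relative to TCF-1 KO DN3, Cd3e rose in lymphomas and Ptcra and Rag1 fell. In TCF-1 KO DN3 relative to WT DN3, Dtx1 rose and Dntt fell. DP thymocyte markers, those of the next CD4 and CD8 positive stage (5 of 7 genes with a row), had a mean of 6.01 to 7.12 in lymphomas, 5.89 to 6.10 in TCF-1 KO DN3 and 5.66 to 6.00 in WT DN3. Cd8b1, a CD8 chain, rose by 1.43 in lymphomas (limma adjusted p = 0.0026) and by 1.40 in TCF-1 KO DN3 (limma adjusted p = 0.000455), both relative to WT DN3. Ccr9, of the same DP list, fell by 1.14 in TCF-1 KO DN3 relative to WT DN3 (limma adjusted p = 0.00569). In lymphomas relative to WT DN3, Ccr9 and Cd8a were not called (limma adjusted p = 0.454 and 0.292). Cd4 and Cd69 were called in neither contrast with WT DN3. B cell markers (6 of 7) had a mean of 4.60 to 4.72 in lymphomas, 4.86 to 4.99 in TCF-1 KO DN3 and 4.79 to 4.86 in WT DN3. The low mean in lymphomas was not shared by all of these genes. Cd79b fell by 0.95 relative to WT DN3 (limma adjusted p = 0.000216), and Pax5 and Blnk had slightly lower means. Cd79a, Ebf1 and Ms4a1 had slightly higher means in lymphomas than in WT DN3. Myeloid and dendritic markers had 4.96 to 5.18 in lymphomas, 5.08 to 5.21 in TCF-1 KO DN3 and 4.97 to 5.07 in WT DN3. Xist, which marks female cells, was low on 3 of 6 lymphomas (1, 2 and 6), on 1 of 3 TCF-1 KO DN3 arrays (replicate 3) and on 0 of 3 WT DN3 arrays, and alternatives with a term for it were run. Signal level also went with a difference: in TCF-1 KO DN3 minus WT DN3 the median was 0.09 over the dimmest 25% of genes tested and -0.11 over the brightest 25%, and in lymphoma minus TCF-1 KO DN3 it was -0.10 over the dimmest 25% and 0.11 over the brightest 25%.

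**Figure D1:**
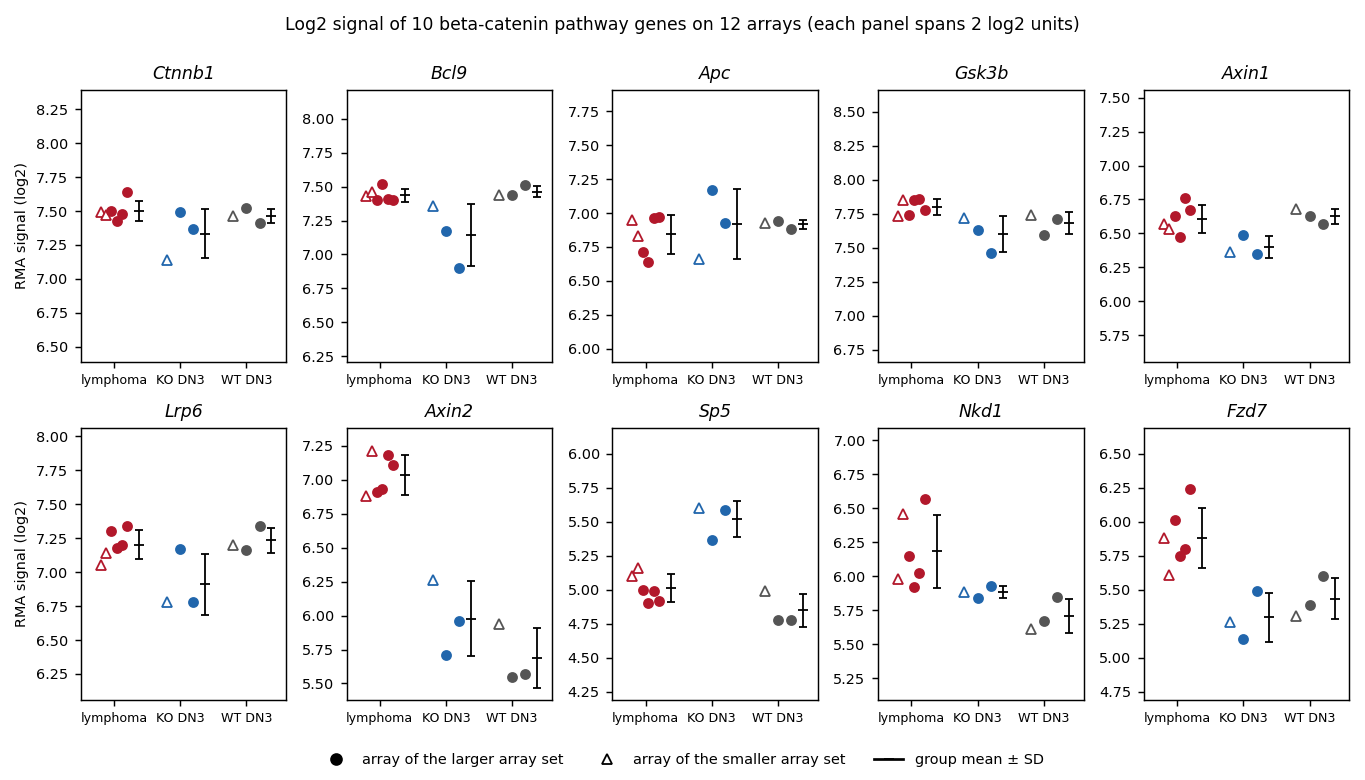
Log2 signal of the 10 pathway genes on each array, 1 panel per gene, with the lymphomas, TCF-1 KO DN3 and WT DN3 from left to right. Each point is 1 array (triangles for the smaller array set) and bars show the group mean and SD. Axin2 lay between 6.88 and 7.21 in all 6 lymphomas, above every DN3 array, and Sp5 was highest on the 3 TCF-1 KO DN3 arrays.

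Axin2, the scaffold that is both part of the destruction complex and a target of the pathway, was the member that differed most. Its log2 signal in the 6 lymphomas had a lowest value of 6.88, a median of 7.02 and a highest of 7.21. It was 6.26, 5.71 and 5.96 in TCF-1 KO DN3 and 5.94, 5.55 and 5.57 in WT DN3. All 6 lymphomas lay above all 6 DN3 arrays, and the 2 DN3 groups overlapped. Axin2 rose in lymphomas over WT DN3 by 1.35 ± 0.11 (SE), a 2.55-fold difference (limma adjusted p = 2.06e-05), and over TCF-1 KO DN3 by 1.06 ± 0.13, a 2.08-fold difference (limma adjusted p = 0.000619). Within the larger array set these differences were 1.47 and 1.19, and within the smaller they were 1.11 and 0.79. DP markers (6.01 to 7.12 in lymphomas) lay above WT DN3 (5.66 to 6.00) and overlapped TCF-1 KO DN3 (5.89 to 6.10). Of the 5 DP genes tested, limma called only Ccr9 in lymphoma minus TCF-1 KO DN3. Ccr9 rose there, with means of 7.54 in lymphomas and 5.75 in TCF-1 KO DN3. Gamma-delta and NK markers had 5.74 to 6.15 in lymphomas, which overlapped TCF-1 KO DN3 (5.83 to 6.07) and WT DN3 (5.62 to 5.76). On that list, Cd163l1, Il2rb and Gzma rose in lymphomas relative to WT DN3, and Nkg7 fell by 1.50 (limma adjusted p = 0.00106). The part of these markers, and of the DN3 markers called above, in the Axin2 and Fzd7 values was not tested. The Axin2 call held under every alternative run, with adjusted p of at most 0.000367 against WT DN3 and 0.00508 against TCF-1 KO DN3. Between TCF-1 KO DN3 and WT DN3, Axin2 differed by 0.29 (95% interval -0.07 to 0.65, limma adjusted p = 0.401) and was not called.

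Sp5, a zinc finger factor of the Sp family that Wnt signals induce in embryonic tissues, was highest in TCF-1 KO DN3. It had a log2 signal of 5.60, 5.37 and 5.59 in TCF-1 KO DN3, against 4.99, 4.78 and 4.78 in WT DN3. In the lymphomas its lowest value was 4.90, the median 5.00 and the highest 5.16. The 3 TCF-1 KO DN3 arrays lay above every other array, and lymphomas and WT DN3 overlapped. Sp5 rose in TCF-1 KO DN3 over WT DN3 by 0.67 ± 0.12 (SE), a 1.59-fold difference (limma adjusted p = 0.0213). This call was lost without WT DN3 replicate 2 (adjusted p = 0.131), WT DN3 replicate 3 (0.0846) or TCF-1 KO DN3 replicate 3 (0.0994), the last being the same fit as the one with a term for Xist. With replicate numbers as a block its adjusted p was 0.00251. Sp5 fell in lymphomas by 0.51 relative to TCF-1 KO DN3 (SE 0.09, limma adjusted p = 0.00833), a call lost without TCF-1 KO DN3 replicate 3 (adjusted p = 0.0502). Lymphoma minus WT DN3 was 0.16 (95% interval -0.04 to 0.35, limma adjusted p = 0.471). Sp5 was among the dimmest 25% of the tested genes by mean signal, where 75.8% of genes had a TCF-1 KO DN3 minus WT DN3 difference above 0. Among lists of other cell types, gamma-delta and NK markers had a mean of 5.83 to 6.07 in TCF-1 KO DN3 and 5.62 to 5.76 in WT DN3, and stromal markers 5.60 to 5.70 in TCF-1 KO DN3 and 5.56 to 5.59 in WT DN3. Myeloid and dendritic markers also lay higher in TCF-1 KO DN3 without overlap. In TCF-1 KO DN3 minus WT DN3, limma called none of the 12 stromal or 9 myeloid and dendritic genes tested. Of the 8 gamma-delta and NK genes tested, Cd163l1 and Gzma rose and none fell, where 1.99% of all genes were called. Differences were below 0 for 4 stromal, 1 myeloid and dendritic and 2 gamma-delta and NK genes. Of the DP list, Cd8a, the other CD8 chain, rose there by 1.21 (limma adjusted p = 0.00111) and Ccr9 fell by 1.14 (limma adjusted p = 0.00569). The part of these markers in the Sp5 result was not tested.

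Fzd7, a Frizzled receptor, had log2 signals in the lymphomas with a lowest value of 5.61, a median of 5.84 and a highest of 6.24. The arrays of TCF-1 KO DN3 gave 5.26, 5.14 and 5.49, and those of WT DN3 5.31, 5.39 and 5.60. Every lymphoma lay above every DN3 array, although the lowest lymphoma and the highest WT DN3 array differed by little. Fzd7 rose in lymphomas over TCF-1 KO DN3 by 0.59 ± 0.13 (SE), a 1.50-fold difference (limma adjusted p = 0.023). The call was lost in the larger array set alone (difference 0.64, adjusted p = 0.0783) and without TCF-1 KO DN3 replicate 1 (adjusted p = 0.0856) or 2 (0.0647). Against WT DN3 the difference was 0.45 (95% interval 0.17 to 0.73) and was not called (limma adjusted p = 0.0714). It passed with the array set as a term (0.0383) and without lymphoma 2 (0.0381). TCF-1 KO DN3 minus WT DN3 was -0.14 (95% interval -0.43 to 0.15, limma adjusted p = 0.628).

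Nkd1, a feedback inhibitor that binds Dishevelled, was not called in any comparison. Its log2 signal in the lymphomas had a lowest value of 5.92, a median of 6.09 and a highest of 6.57. It was 5.88, 5.84 and 5.93 in TCF-1 KO DN3 and 5.61, 5.67 and 5.85 in WT DN3. The lymphomas lay above all WT DN3 arrays and overlapped TCF-1 KO DN3 by 1 array, and lymphomas 2 and 6 were the highest. Lymphoma minus WT DN3 was 0.48 (95% interval 0.16 to 0.79, limma adjusted p = 0.0959), lymphoma minus TCF-1 KO DN3 was 0.30 (95% interval -0.01 to 0.61, limma adjusted p = 0.223), and TCF-1 KO DN3 minus WT DN3 was 0.17 (95% interval -0.08 to 0.43, limma adjusted p = 0.473).

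The 6 core components Ctnnb1, Apc, Axin1, Gsk3b, Lrp6 and Bcl9 were not called by limma in any comparison. At an unadjusted p under 0.05, 2 of them were lower in TCF-1 KO DN3 than in WT DN3 (16.3% of all genes tested passed in either direction), none differed between lymphoma and WT DN3 (15.5%), and 4 were higher in lymphoma than in TCF-1 KO DN3 (24.7%). Ctnnb1, which encodes beta-catenin, had a mean log2 signal of 7.50 ± 0.07 in lymphomas, 7.34 ± 0.18 in TCF-1 KO DN3 and 7.46 ± 0.06 in WT DN3 (SD, n = 6, 3 and 3). TCF-1 KO DN3 replicate 1, at 7.14, was the lowest array for Ctnnb1, and its groups overlapped. Its difference was 0.17 for lymphoma minus TCF-1 KO DN3 (95% interval -0.04 to 0.37) and 0.04 for lymphoma minus WT DN3 (95% interval -0.13 to 0.20), and the difference of 0.17 became 0.02 when quantile normalization was repeated. Apc, the large scaffold of the destruction complex, lay between 6.64 and 6.97 in lymphomas, 6.66 and 7.17 in TCF-1 KO DN3 and 6.88 and 6.94 in WT DN3. TCF-1 KO DN3 minus WT DN3 for Apc was 0.00 (95% interval -0.30 to 0.31), and was -0.27 in the smaller array set and 0.14 in the larger. Axin1, the other Axin scaffold, had 6.36, 6.49 and 6.35 in TCF-1 KO DN3 and 6.68, 6.63 and 6.57 in WT DN3. These did not overlap, and the difference of -0.23 (95% interval -0.47 to 0.02) was not called (limma adjusted p = 0.338). Gsk3b, the kinase that phosphorylates beta-catenin, lay between 7.73 and 7.86 in lymphomas, between 7.46 and 7.72 in TCF-1 KO DN3 and between 7.59 and 7.74 in WT DN3. Lymphoma minus TCF-1 KO DN3 for Gsk3b was 0.20 (95% interval 0.01 to 0.39, limma adjusted p = 0.188), and 0.03 when quantile normalization was repeated. TCF-1 KO DN3 minus WT DN3 for Gsk3b was -0.08, and 0.04 with that normalization.

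Lrp6, the Wnt co-receptor, and Bcl9, a nuclear partner that links beta-catenin to Pygopus, were lowest in TCF-1 KO DN3 by their means. Lrp6 averaged 7.20 ± 0.11 in lymphomas, 6.91 ± 0.23 in TCF-1 KO DN3 and 7.23 ± 0.09 in WT DN3 (SD). Its TCF-1 KO DN3 arrays read 6.78, 7.17 and 6.78, so replicate 2 sat within the WT DN3 range. Bcl9 read 7.36, 7.17 and 6.90 in TCF-1 KO DN3, against 7.44, 7.44 and 7.51 in WT DN3, and the lymphomas lay between 7.40 and 7.52. No TCF-1 KO DN3 array for Bcl9 reached any other array. The difference from WT DN3 was -0.32 for each gene (limma adjusted p = 0.274 for Lrp6 and 0.269 for Bcl9), and for Bcl9 it was -0.44 in the larger array set and -0.08 in the smaller. It was -0.22 for each when quantile normalization was repeated. Lymphoma minus TCF-1 KO DN3 was 0.29 for Lrp6 (limma adjusted p = 0.128) and 0.30 for Bcl9 (limma adjusted p = 0.102), and 0.17 for Lrp6 and 0.16 for Bcl9 with that normalization. Without TCF-1 KO DN3 replicate 2, Lrp6 was called there (0.42, adjusted p = 0.0314).

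**Figure D2:**
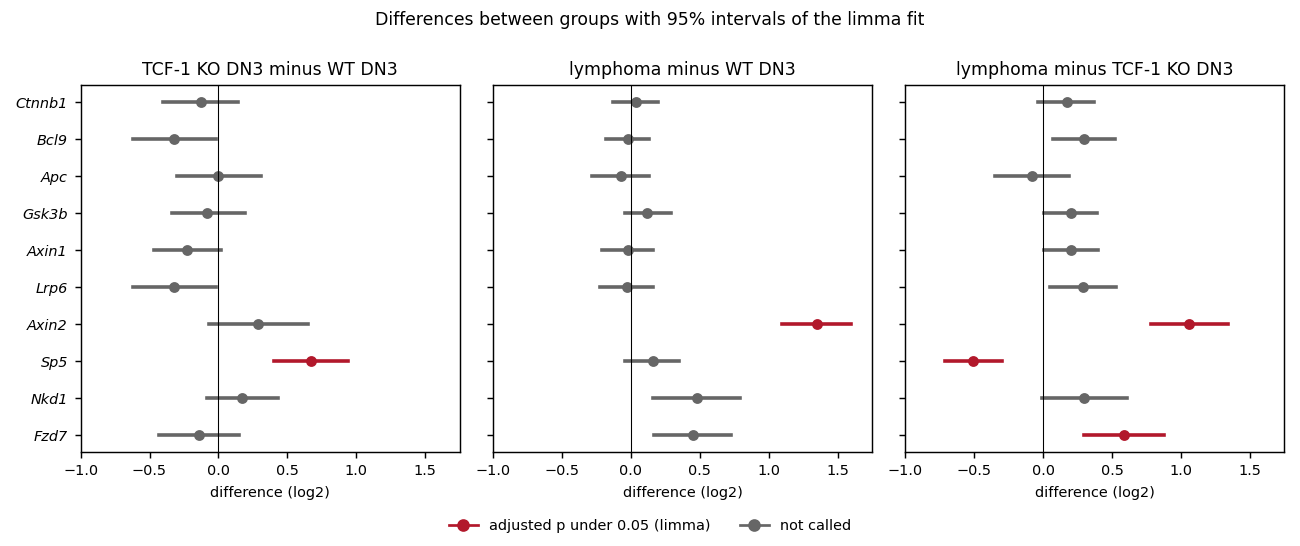
Log2 difference of each of the 10 pathway genes in the 3 comparisons, with 95% intervals from limma. Red points are genes called at an adjusted p under 0.05: Axin2 in both lymphoma comparisons, Fzd7 and Sp5 in lymphoma minus TCF-1 KO DN3, and Sp5 in TCF-1 KO DN3 minus WT DN3.

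Among the 10 genes, 1 rose and none fell in TCF-1 KO DN3 relative to WT DN3, where 298 of 14953 genes (1.99%) were called, 85 higher (0.568%) and 213 lower (1.42%). With replicate numbers as a block, 1380 genes were called in that comparison and still 1 of the 10. Groups did not overlap for 3 of the 10 (Axin1, Sp5 and Bcl9), against 22.0% of all genes tested. In lymphoma relative to WT DN3, 1 of the 10 rose and none fell. There 871 genes (5.82%) were called, 443 higher (2.96%) and 428 lower (2.86%), and 3 of the 10 did not overlap (Axin2, Fzd7 and Nkd1) against 10.3% of all. In lymphoma relative to TCF-1 KO DN3, 2 rose and 1 fell. There 990 genes (6.62%) were called, 673 higher (4.5%) and 317 lower (2.12%), which became 491 higher and 448 lower when quantile normalization was repeated. Groups did not overlap for 5 of the 10 (Gsk3b, Axin2, Sp5, Fzd7 and Bcl9), against 13.6% of all. The median difference of the 10 was -0.10 in TCF-1 KO DN3 minus WT DN3 (0.03 over all genes tested), 0.08 in lymphoma minus WT DN3 (-0.01 over all) and 0.25 in lymphoma minus TCF-1 KO DN3 (-0.03 over all). Ctnnb1, Apc, Gsk3b, Lrp6 and Bcl9 were among the brightest 25% of genes by mean signal, whose medians were -0.11 in TCF-1 KO DN3 minus WT DN3 and 0.11 in lymphoma minus TCF-1 KO DN3. At an unadjusted p under 0.05, 1 of the 10 was higher and 2 lower in TCF-1 KO DN3 than in WT DN3 (16.3% of all genes passed in either direction), 3 were higher and 0 lower in lymphoma than in WT DN3 (15.5% of all), and 6 were higher and 1 lower in lymphoma than in TCF-1 KO DN3 (24.7% of all). The 3 comparisons share arrays pairwise and are not independent of each other.

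Within groups, the median SD of the 10 genes was 0.106 in lymphomas (0.153 over all genes tested), 0.175 in TCF-1 KO DN3 (0.162 over all) and 0.087 in WT DN3 (0.126 over all). Among the lymphomas Nkd1 varied most (SD 0.269) and Bcl9 least (0.048). Relative to the WT DN3 mean, Axin2 was higher by 1.20 to 1.52 in the 6 tumours, Nkd1 by 0.21 to 0.86, Fzd7 by 0.18 to 0.80 and Sp5 by 0.05 to 0.31. Lymphoma 6 had the highest value of both Nkd1 and Fzd7, and lymphoma 2 the highest of Axin2 and Sp5. Of 6 pairs among Axin2, Sp5, Nkd1 and Fzd7, none was correlated across the 6 tumours at an adjusted p under 0.05 by an exact two-sided permutation test. The closest was Axin2 with Nkd1 (Pearson r = 0.586, exact permutation p = 0.254, Spearman rho = 0.486, exact permutation p = 0.356, n = 6, adjusted 0.8 for r). Without the 2 tumours farthest from the median of Axin2 it was 0.925, and within the 4 lymphomas of the larger array set it was 0.322.

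**Figure D3:**
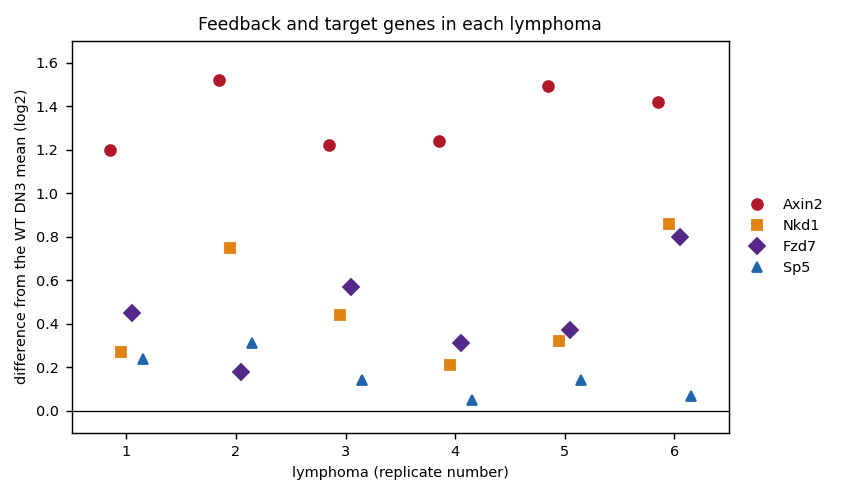
Log2 difference of Axin2, Nkd1, Fzd7 and Sp5 in each of the 6 lymphomas from the WT DN3 mean of the same gene. Each point is 1 tumour. Axin2 was between 1.20 and 1.52 in all 6, while Nkd1 ranged from 0.21 to 0.86.

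The other genes of the pathway were taken from lists of 118 genes by role, of which 104 were tested. In TCF-1 KO DN3 relative to WT DN3, 1 rose, 5 fell and 98 were not called, where 1.99% of all genes tested were called. In lymphoma relative to WT DN3, 5 rose, 4 fell and 95 were not called (5.82% of all genes were called), and in lymphoma relative to TCF-1 KO DN3, 5 rose, 4 fell and 95 were not called (6.62% of all). Their median difference was 0.06 in TCF-1 KO DN3 minus WT DN3 (0.03 over all genes), -0.02 in lymphoma minus WT DN3 (-0.01 over all) and -0.06 in lymphoma minus TCF-1 KO DN3 (-0.03 over all). Where a call of these genes was lost without 1 array, the array and the adjusted p without it are given, and losses under repeated quantile normalization, 1 fit to all arrays, an Xist term and the larger array set alone are given in the section on how results depend on processing.

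Among upstream genes, none of the 15 Wnt ligands tested (of 19) was called by limma in any comparison. At an unadjusted p under 0.05, 2 ligands were higher in TCF-1 KO DN3 than in WT DN3 (16.3% of all genes passed in either direction), 2 were lower in lymphoma than in TCF-1 KO DN3 (24.7% of all), and 0 differed between lymphoma and WT DN3 (15.5% of all). The ligands' shares were not above those of all genes. Of the 12 other receptors tested (of 17), Ryk, a receptor-like kinase that binds Wnt, rose in lymphomas, with a mean log2 signal of 5.63 in lymphomas, 4.76 in TCF-1 KO DN3 and 4.62 in WT DN3 (limma adjusted p = 0.0336 against TCF-1 KO DN3 and 0.015 against WT DN3). The Ryk calls were lost without any 1 of the DN3 arrays (adjusted p up to 0.111 against TCF-1 KO DN3 and 0.0803 against WT DN3), and the one against TCF-1 KO DN3 also without lymphoma 3 (0.0617), 5 (0.0647) or 6 (0.0634). Wls, the carrier that Wnt ligands need for secretion, rose in lymphomas relative to TCF-1 KO DN3 by 0.77 (limma adjusted p = 0.0495), with means of 7.31 in lymphomas and 6.54 in TCF-1 KO DN3. This call was lost without any 1 of the TCF-1 KO DN3 arrays (adjusted p up to 0.222) or any 1 lymphoma other than lymphoma 4 (up to 0.0861). In TCF-1 KO DN3 minus WT DN3, Wls was -0.41 and not called (limma adjusted p = 0.235), and passed with replicate numbers as a block (0.0312). Of the 17 secreted and membrane inhibitors tested (of 19), limma called 1, in lymphoma minus TCF-1 KO DN3 (6.62% of all genes). This was Sfrp2, a decoy receptor for Wnt, which fell there by 0.50 (limma adjusted p = 0.0141). The Sfrp2 call was lost without TCF-1 KO DN3 replicate 1 (0.0556) or 3 (0.0754).

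Among the 22 destruction complex and Dishevelled genes, limma called none in TCF-1 KO DN3 minus WT DN3, where 3 were lower and 0 higher at an unadjusted p under 0.05, a share below the 16.3% of all genes. Tnks2, a tankyrase that marks Axin for degradation, rose in lymphomas relative to WT DN3 by 0.42 (limma adjusted p = 0.0277). Csnk1a1, the casein kinase that primes beta-catenin, rose in lymphomas relative to TCF-1 KO DN3 by 0.53 (limma adjusted p = 0.0206), with means of 9.36 in lymphomas and 8.83 in TCF-1 KO DN3. Ppp2r1a, the scaffold subunit of the phosphatase PP2A, rose there by 0.38 (limma adjusted p = 0.0412). The Tnks2 call was lost without any 1 of the WT DN3 arrays (adjusted p up to 0.151) or without lymphoma 5 (0.054) or 6 (0.0503). That of Csnk1a1 was lost without TCF-1 KO DN3 replicate 1 (0.0682) or 3 (0.102). That of Ppp2r1a was lost without TCF-1 KO DN3 replicate 1 (0.151) or 3 (0.157) or any 1 of the lymphomas (up to 0.0703).

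Of the 24 nuclear factors, Lef1, which encodes LEF-1, differed in all 3 comparisons. Its log2 signal was 10.25 ± 0.15 in lymphomas, 9.82 ± 0.17 in TCF-1 KO DN3 and 8.81 ± 0.13 in WT DN3 (SD). It rose by 1.01 in TCF-1 KO DN3 relative to WT DN3 (limma adjusted p = 0.0043) and by 0.42 in lymphomas relative to TCF-1 KO DN3 (limma adjusted p = 0.0449). The second of these Lef1 calls was lost without any 1 of the TCF-1 KO DN3 arrays (adjusted p up to 0.165) or any 1 lymphoma other than lymphoma 1 (up to 0.0819). Tcf7l2, another TCF/LEF factor, went the other way, with means of 5.30 in lymphomas, 5.82 in TCF-1 KO DN3 and 6.43 in WT DN3, and fell in each comparison (limma adjusted p = 0.0211 for TCF-1 KO DN3 against WT DN3). Smarca4, the ATPase BRG1 of chromatin remodelling complexes, averaged 8.21 in lymphomas, 8.69 in TCF-1 KO DN3 and 9.41 in WT DN3 and also fell in each (limma adjusted p = 0.0085 for TCF-1 KO DN3 against WT DN3). Tle3, a Groucho co-repressor of TCF/LEF factors, averaged 7.18 in lymphomas, 7.02 in TCF-1 KO DN3 and 7.59 in WT DN3 and fell in both contrasts with WT DN3 (limma adjusted p = 0.0363 for TCF-1 KO DN3 and 0.00954 for lymphomas). Nlk, a kinase that phosphorylates TCF/LEF factors, also rose in lymphomas relative to WT DN3 (8.28 against 7.76, limma adjusted p = 0.014). It was chosen for naming after its values were seen, and its call was lost without WT DN3 replicate 2 (0.0959) or 3 (0.0738). In TCF-1 KO DN3 minus WT DN3, the Smarca4 call was lost without WT DN3 replicate 2 (0.0705) and the Tcf7l2 call without any 1 of the WT DN3 arrays (up to 0.137) or TCF-1 KO DN3 replicate 3 (0.0946). In the larger array set alone, lymphoma minus TCF-1 KO DN3 was not called for Smarca4 (0.0858) or Tcf7l2 (0.0757). The Tle3 call in TCF-1 KO DN3 minus WT DN3 was lost without any 1 of the WT DN3 arrays (up to 0.188) or TCF-1 KO DN3 replicate 2 (0.0617) or 3 (0.156), and its call in lymphomas without WT DN3 replicate 2 (0.0583) or 3 (0.0568).

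Of the 12 genes tested (of 15) that are Wnt targets in other tissues, Ccnd2, which encodes cyclin D2, fell in all 3 comparisons, with means of 7.24 in lymphomas, 8.23 in TCF-1 KO DN3 and 8.95 in WT DN3. The Ccnd2 call in TCF-1 KO DN3 relative to WT DN3 (limma adjusted p = 0.0286) was lost without any 1 of the WT DN3 arrays (up to 0.12) or TCF-1 KO DN3 replicate 3 (0.088), and that in lymphomas relative to TCF-1 KO DN3 (limma adjusted p = 0.0126) without TCF-1 KO DN3 replicate 1 (0.0669). Ccnd1, which encodes cyclin D1, averaged 6.64 in lymphomas, 5.77 in TCF-1 KO DN3 and 5.51 in WT DN3 and rose in lymphomas relative to WT DN3 (1.14, limma adjusted p = 0.0191), a call lost without any 1 of the WT DN3 arrays (up to 0.0995). Against TCF-1 KO DN3 the Ccnd1 difference of 0.87 was not called (limma adjusted p = 0.0589), and passed without lymphoma 6 (0.00955) and under 6 other alternatives (adjusted p from 0.0211 to 0.0498). Jun, an AP-1 subunit, fell by 0.88 in TCF-1 KO DN3 relative to WT DN3 (limma adjusted p = 0.0244), a call lost without WT DN3 replicate 1 (0.0839) or 2 (0.118) or TCF-1 KO DN3 replicate 3 (0.123).

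**Figure D4:**
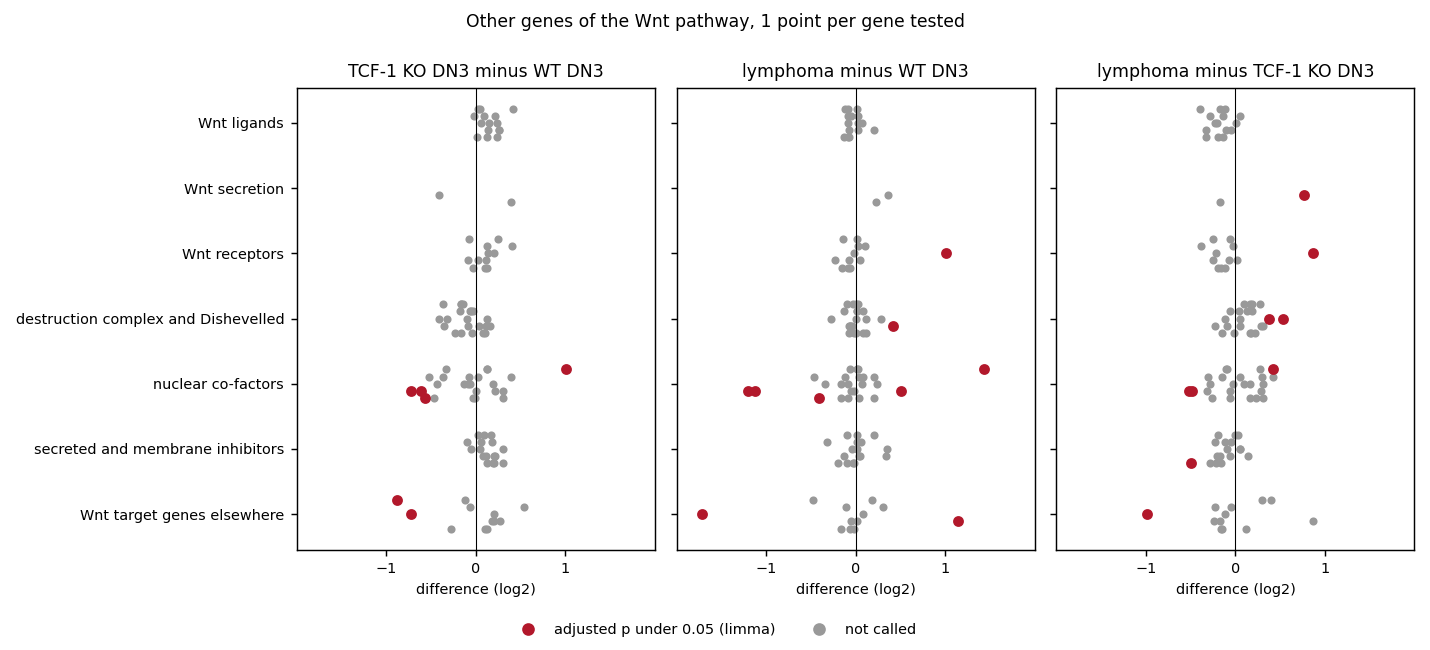
Log2 difference of every tested gene of the pathway lists, by role, in the 3 comparisons, 1 point per gene, with called genes in red. No ligand was called in any comparison, and the called nuclear factors included Lef1 above 0 and Tcf7l2 and Smarca4 below 0 in each.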

How the data were processed

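RNA from sorted cells (800 pg to 50 ng per array) was amplified with a NuGEN Pico kit, per the labels' protocols, before hybridisation to Affymetrix Mouse Gene ST arrays. The deposited log2 values hold 1 signal per transcript cluster. The submitters' processing notes name RMA and Partek, with no version, and base 2 was inferred from the range of values. Of 35556 rows, 21789 carried 1 gene symbol, and the row with the highest mean stood for a gene, which gave 19938 genes. Genes with a mean under the 25th percentile (4.78) were left out. Each pair of groups was fitted separately with limma 3.58.1 in R 4.3.3 (lmFit and eBayes, two-sided, Benjamini-Hochberg over 14953 genes), and the code was tested on simulated data. The labels call the arrays biological replicates but do not relate the mice, so the p-values reflect only how these samples spread, and the number of arrays limits the precision. Same-numbered TCF-1 KO and WT DN3 arrays deviated together (r = 0.51, 0.42 and 0.25), so these numbers were taken to pair them, from the data and not from a label. The main fits held no term for this pairing, which entered only in the alternative with replicate numbers as a block. The arrays numbered 1 (r = 0.51) were the only DN3 arrays of the smaller array set, so pairing and array set cannot be told apart for them. The members and lists were chosen with earlier results of these data known. The text names the members, Lef1, called genes of each list (up to 4 by lowest p) and, for 4 members, the 3 genes most like them. Alternatives were other scalings, filters, row choices, variance models, blocks, array sets, an Xist term and leaving out each array. Replicate numbers as a block were a fixed term in TCF-1 KO DN3 minus WT DN3. In the lymphoma comparisons they were a block with an estimated correlation.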

Additional observations from a re-analysis of the deposited data

Results flagged for a closer look

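Ctnnb1 in lymphoma 6 (log2 signal 7.64) stood apart from the other 5 lymphomas, the gap to the nearest being 0.684 of the range of the 6 arrays. About 1 in 20 groups is marked in this way by chance, and 10 groups of this size were looked at.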

How the results depend on the processing

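Axin2 kept its direction and both calls under every alternative. Of 567 alternative values of the 10 genes, 552 kept a call and its direction or, where not called, stayed within the replicate spread. Of the 552, 12 changed sign, and no called value did. A further 8 lost a call, all of them for Sp5 or Fzd7, and 4 gained one. Genes not called, which were 9, 9 and 7 of the 10 in the 3 comparisons, had no call to lose. The other 3 moved by more than that spread when quantile normalization was repeated: Gsk3b in TCF-1 KO DN3 minus WT DN3 (0.04), and Gsk3b (0.03) and Ctnnb1 (0.02) in lymphoma minus TCF-1 KO DN3. Of 792 alternative values of the other named pathway genes, 98 lost a call and 8 gained one. With quantile normalization repeated, calls were lost for Tle3 in TCF-1 KO DN3 minus WT DN3 (limma adjusted p = 0.103) and for Wls (0.0686), Lef1 (0.0949) and Ppp2r1a (0.184, difference 0.23) in lymphoma minus TCF-1 KO DN3. With no filter, the Wls call in lymphoma minus TCF-1 KO DN3 was also lost (limma adjusted p = 0.0604). With a trended robust variance in limma, calls were lost for Tle3 in TCF-1 KO DN3 minus WT DN3 (adjusted p = 0.0515) and Ppp2r1a in lymphoma minus TCF-1 KO DN3 (0.0589). In 1 fit to all arrays, Jun (0.259) and Ccnd2 (0.102) were not called in TCF-1 KO DN3 minus WT DN3. In the larger array set alone, calls were lost for Tcf7l2 (0.0664) and Jun (0.0745) in TCF-1 KO DN3 minus WT DN3, for Tnks2 (0.141) and Ccnd1 (0.101) in lymphoma minus WT DN3, and for Wls, Ryk, Csnk1a1, Ppp2r1a, Lef1, Smarca4, Tcf7l2 and Sfrp2 in lymphoma minus TCF-1 KO DN3 (0.0617 to 0.255). With a term for Xist, at least 1 call was lost for Tcf7l2, Tle3, Ccnd2, Jun, Ryk, Tnks2, Wls, Ppp2r1a and Lef1 (0.052 to 0.156). With replicate numbers as a fixed term, which the pairing check bears on, 1380 genes were called in TCF-1 KO DN3 minus WT DN3 in place of 298. With these numbers as a correlated block in lymphoma minus WT DN3, 2 of the 10 genes were called in place of 1. They were Axin2 and Fzd7 (limma adjusted p = 0.0488 for Fzd7). Lymphomas did not deviate with same-numbered DN3 arrays throughout (r = -0.22 for number 2 of WT DN3), so that block carries a shared number only. With the array set as a term, calls were 754 in TCF-1 KO DN3 minus WT DN3 and 1702 in lymphoma minus TCF-1 KO DN3, and 2 of the 10 genes passed in lymphoma minus WT DN3. In the larger array set alone, calls were 144 in TCF-1 KO DN3 minus WT DN3, 549 in lymphoma minus WT DN3 and 325 in lymphoma minus TCF-1 KO DN3. With a term for Xist, 126 genes and 0 of the 10 were called in TCF-1 KO DN3 minus WT DN3, and with a filter at the 50th percentile, which leaves Sp5 out, 0 of the 10. Leaving out each array in turn gave 57 to 443 genes and 0 to 1 of the 10 in TCF-1 KO DN3 minus WT DN3, 560 to 872 genes and 1 to 2 of the 10 in lymphoma minus WT DN3, and 431 to 1361 genes and 2 to 3 of the 10 in lymphoma minus TCF-1 KO DN3. The cause of these changes was not tested. With 3 arrays in each DN3 group, a p that misses the threshold does not show that levels were alike.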

Other observations

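Genes whose log2 signal ran most like that of a member over the 12 arrays are given as a description, since group differences enter these correlations. For Axin2 they were D430041D05Rik (Pearson r = 0.976), Zdhhc13 (0.962) and Prmt7 (0.961). For Sp5 they were Xxylt1 (0.955), Rusf1 (0.951) and Styxl1 (0.923). For Nkd1 they were Acvr1 (0.944), Igsf10 (0.915) and Irs1 (0.911), and for Fzd7 Oxnad1 (0.922), Zscan12 (0.916) and Ndfip1 (0.912).

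Of the 15 Wnt ligands tested, 14 had a TCF-1 KO DN3 minus WT DN3 difference above 0 (median 0.14), and of the 17 inhibitors 15 did (median 0.13), while limma called none of either. Over all genes tested 55.3% were above 0, with 75.8% in the dimmest 25% by mean signal and 31.1% in the brightest 25%. Of the ligands 8 and of the inhibitors 8 were among the dimmest 25%, and none of either was among the brightest 25%.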
